A study of Caenorhabditis elegans with 58 samples.

Results

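This comparison set 4 small RNA libraries of wild-type young adults against 4 of wild-type embryos of the nematode Caenorhabditis elegans. The 8 libraries, chosen by their labels as experiment 1 of the series, are part of 58, and both miRNA arms of all 138 hairpins in the table were examined. The other libraries carry an AEDH change in one or both of the miRNA Argonautes ALG-1 and ALG-2, lack ebax-1 or a site in the Y47 transcript, or are wild type of another stage or experiment. All 8 samples here were whole hermaphrodites of the wild-type strain N2, with no mutation. Young adults were collected 44 h at 25 °C after L1 larvae that had hatched overnight were put on food. The embryos, which the labels call mixed and which were thus not of 1 age, were freed from adults with hypochlorite after growth at 20 °C. Stage and growth temperature cannot be told apart in this design. In whole animals, fewer cells of a type and less of a miRNA per cell cannot be told apart either. The labels name no separate cultures for the replicates, so each p-value rests on the spread between libraries, and that spread may be technical only.

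A miRNA hairpin is cut into a short duplex of a 5p and a 3p arm. An Argonaute keeps one arm, the guide, which pairs with messenger RNAs through the seed near its 5′ end, and the other, the star, is mostly degraded. In C. elegans the mir-35 and mir-51 families are needed for embryogenesis, while lin-4 and the let-7 family are heterochronic miRNAs that time the larval stages and the passage to the adult. Arms marked with an asterisk are the stars of the deposited annotation.

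The arms held 7141192 to 11518553 counts per young adult library and 11881931 to 15561313 per embryo library, so the embryos were sequenced more deeply. Between 243 and 250 arms had at least 1 count, and 3 counts, taken as the floor, were worth 0.193 to 0.420 CPM (counts scaled to a common library total). The share of reads assigned to no annotated feature was 33.7 to 41.8% in young adults and 14.4 to 18.1% in embryos. Spike-in RNAs had 1994931 to 2398920 counts in young adults and 1182076 to 1909369 in embryos. The stage markers followed the labels in every library, as the mir-35 and let-7 families below show.

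Embryo replicate 2 stood apart for a few larval and adult miRNAs. The log2 fold changes of the arms flagged in it are given with and without it, partly in the closing sections. Levels below are TMM-scaled CPM, a scaling that assumes most arms to be equal between libraries, unless a share of counts is named. lin-4_5p, the founding heterochronic miRNA, which represses lin-14 and lin-28, had 1579, 1364, 1513 and 1594 CPM in the young adult libraries, against 7.77, 192, 9.36 and 7.27 CPM in the embryo libraries. Embryo replicate 2 held most of the embryo signal and still lay under every young adult library. mir-237, whose 5p arm is a lin-4 relative, had 3081, 3393, 3549 and 4185 CPM in young adults and 19.4, 109.9, 21.4 and 16.4 CPM in embryos. The same embryo library was also the highest of its group for mir-34_5p* and mir-84_5p, by a wide margin, whereas it lay close to the others for let-7_5p, mir-48_5p and the mir-35 family.

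**Figure D1:**
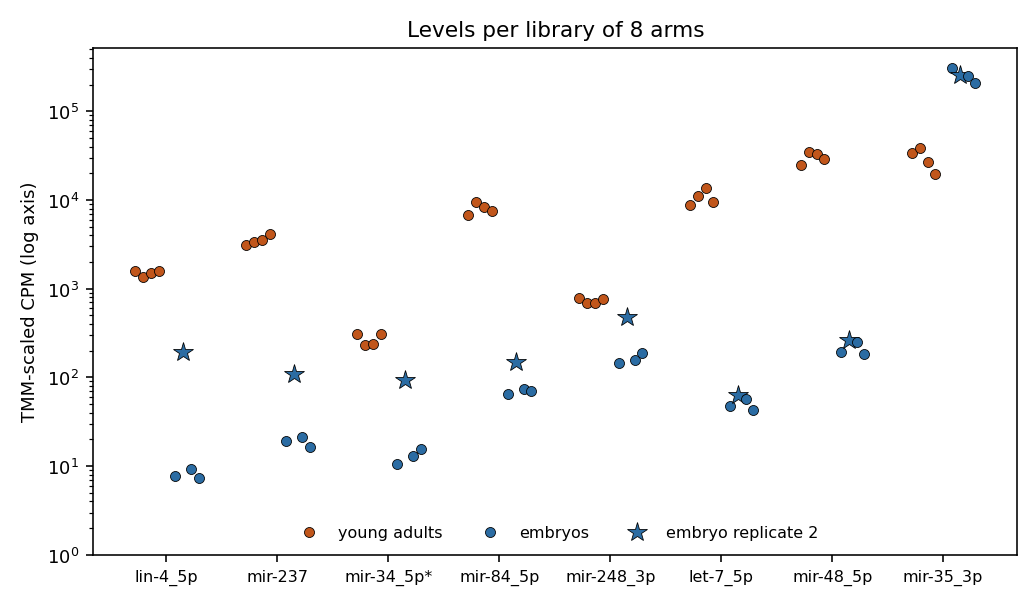
TMM-scaled CPM (log axis) of 8 arms in each of the 4 young adult libraries (orange) and 4 embryo libraries (blue), with embryo replicate 2 drawn as a star. For lin-4_5p the star lies at 192 CPM and the other embryo libraries between 7.27 and 9.36 CPM, while for let-7_5p all embryo libraries lie between 43.1 and 63.1 CPM.

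Most arms differed between the stages. Of the 225 arms with enough counts to test, 193 (85.8%) passed an edgeR quasi-likelihood test at a Benjamini-Hochberg adjusted p under 0.05, 97 of them (43.1%) higher in young adults and 96 (42.7%) lower. A change of at least 4-fold was found for 58 higher arms (25.8%) and 44 lower arms (19.6%). The young adult and embryo libraries did not overlap for 185 arms (82.2%), and 32 arms made no call. The median log2 fold change over the tested arms, young adult over embryo throughout, was 0.00 with TMM scaling. Scaling to total counts moved that median up by 0.43 and gave 112 higher and 77 lower arms, and scaling to the spike-ins moved it down by 0.81 and gave 72 higher and 117 lower. Directions of small changes below therefore depend on the scaling, and a fold is relative to the other arms.

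Guide and star arms were called at both signs. Among guide arms, 63 of 132 tested were higher in young adults and 52 lower, with a median log2 fold change of 0.14. Among star arms, 34 of 93 tested were higher and 44 lower, with a median of -0.53. By chromosome, the X held 43 tested guide arms, of which 27 were higher and 13 lower, and chromosome II held 26, of which 7 were higher and 14 lower. The mir-35 family makes up 8 of those 14 lower guide arms of chromosome II.

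**Figure D2:**
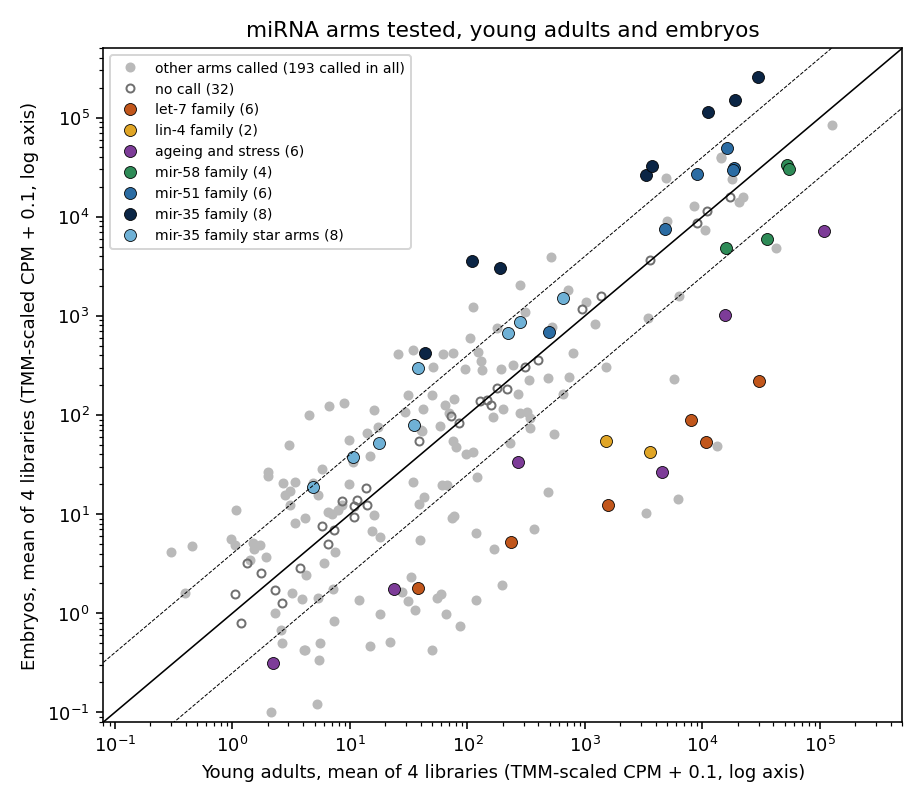
Mean TMM-scaled CPM plus 0.1 of each of the 225 tested arms in young adults (x, log axis) and in embryos (y, log axis), 4 libraries each. The solid line marks equal levels and the dashed lines a 4-fold difference, open circles are the 32 arms with no call, and the let-7 family lies far below the line while the mir-35 family lies above it.

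Nearly all counts of both stages lay in arms that the stages shared, at different levels. An arm was called shared when it had at least 10 CPM, here relative to the library's total arm counts, in all 8 libraries. There were 123 shared arms, 85 guides and 38 stars, and they held 98.2 ± 0.133% of arm counts in young adults and 99.9 ± 0.0156% in embryos (SD, n = 4 each). An arm under 10 CPM adds few counts by definition, so a high share of counts is partly built in. Of the shared arms, 46 were higher in young adults, 61 lower and 16 made no call. Sharing an arm therefore did not mean equal levels. Another 59 arms were graded, present at 10 CPM in part of the libraries only: 31 in all 4 young adult libraries but not in all embryo libraries, 17 in all 4 embryo libraries but not in all young adult libraries, and 11 in neither full group. Graded arms held 1.72 ± 0.131% of counts in young adults and 0.0984 ± 0.0146% in embryos. The remaining arms were 5 of young adults only and 89 under 10 CPM in every library.

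Some abundant shared guides made no call. mir-228_5p, of glia, had 10997 ± 908 CPM in young adults and 11513 ± 1058 CPM in embryos (SD, n = 4 each), and its log2 fold change was -0.07 (95% interval -0.32 to 0.19). mir-90_3p had 9021 ± 936 CPM in young adults and 8743 ± 658 CPM in embryos (0.05, -0.21 to 0.30), and mir-46_3p had 3574 ± 656 CPM in young adults and 3626 ± 197 CPM in embryos (-0.02, -0.34 to 0.30). With either total counts or spike-in totals the median of all arms moves by more than these differences.

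Only 5 arms met the definition of one stage, at least 10 CPM in all 4 libraries of it and under 1 CPM in all 4 of the other, and all 5 were of young adults, by CPM relative to total arm counts. Their embryo values lie near the floor of 3 counts, so the folds below rest on few embryo counts. mir-48_3p*, the star of the let-7 relative mir-48, had 71.8, 89.2, 94.7 and 88.5 TMM-scaled CPM in young adults and 0.585, 0.445, 0.800 and 0.709 in embryos. mir-246_5p*, the star of the longevity-promoting mir-246, had 48.0, 53.5, 51.2 and 47.1 CPM in young adults and 0.418, 0.534, 0.160 and 0.177 CPM in embryos. The definition itself sets the stages apart, so a lack of overlap is no separate result for these arms. The log2 fold changes of the stars were 7.05 (95% interval 6.50 to 7.61) and 7.24 (6.53 to 7.94). Their edgeR adjusted p of 2.26e-09 and 8.65e-09 come from the libraries that picked the arms and add no separate support. mir-1817_5p had 57.7, 66.4, 76.3 and 63.9 CPM in young adults and 1.00, 1.16, 0.880 and 0.443 CPM in embryos, a log2 fold change of 6.23. mir-784_5p had 23.4, 21.0, 19.0 and 24.7 CPM in young adults and 0, 0.890, 0.240 and 0.532 CPM in embryos. The least abundant was mir-237_3p*, the star of the lin-4 relative, with 8.49, 16.7, 17.9 and 16.3 CPM in young adults and 0.167, 0.445, 0.400 and 0.443 CPM in embryos. So 3 of the 5 are stars whose guides were also higher in young adults and were found in embryos above 1 CPM.

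The definition decides the number. With a minimum of 50 CPM in the one stage, or with TMM-scaled CPM, 3 arms were of young adults only, and with a maximum of 3 CPM in the other stage 15 were. Without embryo replicate 2 a 6th arm joined, mir-2210_3p, a guide in an exon of ZK593.2, with 30.4, 37.4, 38.5 and 36.6 TMM-scaled CPM in young adults and 0, 3.03, 0.640 and 0.266 in embryos. Leaving out embryo replicate 3 or 4 likewise gave 6 arms.

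No arm was of embryos only. Under the wider maximum of 3 CPM there was 1, mir-796_5p (hairpin at chromosome X, 1798941 to 1799001, minus strand, ce11), which had 1.58, 2.08, 2.29 and 1.61 TMM-scaled CPM in young adults and 27.9, 23.3, 24.2 and 21.8 in embryos. mir-796_5p was thus found in every young adult library, far under the lowest embryo library, and changed by -3.69 on the log2 scale (edgeR adjusted p 5.18e-08). The maximum that picked this arm sets its stages apart, so that p-value adds no separate support.

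The most abundant arms changed places. In young adults the leading arm was mir-1_3p, the muscle miRNA, with 14.7 ± 1.04% of arm counts, followed by mir-71_5p with 12.5 ± 0.239%. In embryos mir-35_3p led with 21.8 ± 1.49%, followed by mir-37_3p with 13.0 ± 0.602% and mir-39_3p with 9.94 ± 0.919%. Of the 10 most abundant arms of each stage, 3 were the same: mir-1_3p, mir-58a_3p and mir-35_3p. The 10 leading arms of young adults held 60.3 ± 0.988% of their counts and 38.6 ± 0.751% of embryo counts. The 10 leading arms of embryos held 35.5 ± 1.14% of young adult counts and 71.2 ± 0.966% of embryo counts.

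The mir-35 family, 8 related miRNAs that embryos need, together with the mir-51 family, to develop, was lower in young adults throughout. It held 9.58, 9.60, 6.35 and 5.55% of arm counts in the young adult libraries, against 51.1, 52.1, 50.1 and 48.3% in the embryo libraries. Young adults kept a part of the family that lay far under every embryo library, larger in replicates 1 and 2 than in 3 and 4. mir-35_3p had 33385, 38619, 27012 and 19802 CPM in young adults and 303581, 257739, 247346 and 208233 CPM in embryos, a log2 fold change of -3.10 (95% interval -3.58 to -2.61, edgeR adjusted p 2.99e-07). mir-42_3p, which lies outside the main cluster, had the largest difference, with 165, 151, 67.0 and 55.8 CPM in young adults and 3832, 3554, 3767 and 3164 CPM in embryos. It was 32.6-fold lower in young adults, a log2 fold change of -5.03 (-5.88 to -4.17). All 8 members passed the test, beside 42.7% of all tested arms called lower. Their log2 fold changes ran from -5.03 to -2.998 with a median of -3.20, beside 0.00 over all tested arms.

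Within the family the differences were not equal. mir-35 to mir-41 lie in 1 cluster on chromosome II (11537629 to 11538389, plus strand, ce11), opposite to an intron of Y62F5A.9, and mir-42 lies in a second one with mir-43 and mir-44. mir-35_3p, mir-36_3p, mir-37_3p and mir-40_3p had log2 fold changes of -3.10, -3.02, -2.998 and -3.12, while mir-38_3p of the same cluster had -4.004 (95% interval -4.80 to -3.21), an interval that overlaps theirs. The interval of mir-42_3p does not overlap with those of these 4 members. mir-39_3p fell to 11138 ± 3509.9 CPM in young adults, against 115041 ± 7063 CPM in embryos. mir-41_3p was the least abundant guide of the family, with 43.5 ± 12.1 CPM in young adults and 422 ± 69.3 CPM in embryos (SD, n = 4 each).

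The star arms of the family were lower too, by less. All 8 passed the test, beside 42.7% of all tested arms called lower. The median log2 fold change was -1.61, with a range from -2.99 (mir-42_5p*) to -1.18 (mir-36_5p*). mir-41_5p*, which is more abundant than its guide, had 819.6, 837, 566 and 364 CPM in young adults and 1384, 1668, 1397 and 1568 CPM in embryos. mir-39_5p* had 311, 487, 220.0 and 105 CPM in young adults and 696, 998, 865 and 873 CPM in embryos, so its libraries did not overlap although the young adults differed among themselves.

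The let-7 family was higher in young adults in all its members. Its members hold lin-41 (let-7) and hbl-1 (mir-48, mir-84 and mir-241) in check as larvae develop. Together the 6 members in the table held 5.35, 6.11, 6.06 and 5.95% of arm counts in young adult libraries, against 0.0248, 0.0427, 0.0356 and 0.0296% in embryo libraries. let-7_5p had 8869, 11054, 13642 and 9565 CPM in young adults and 47.7, 63.1, 57.7 and 43.1 CPM in embryos, with no overlap. This was 204-fold, a log2 fold change of 7.67 (95% interval 7.16 to 8.18, edgeR adjusted p 1.02e-09). mir-48_5p, the most abundant member, had 24881, 34641, 33067 and 28862 CPM in young adults and 192, 261, 252 and 183 CPM in embryos. mir-241_5p, its neighbour on chromosome V, had 1576 ± 192 CPM in young adults and 12.3 ± 2.57 CPM in embryos, and the neighbours' log2 fold changes were 7.09 and 6.997. mir-84_5p had 6682, 9366, 8265 and 7508 CPM in young adults and 64.4, 150.0, 74.1 and 69.9 CPM in embryos, with the highest embryo value in replicate 2. All 6 passed the test, with a median log2 fold change of 6.74, beside 43.1% of all tested arms called higher. The smallest change was that of mir-794_5p, 4.49, or 5.54 without embryo replicate 2.

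Both lin-4 relatives were higher in young adults, by an amount that embryo replicate 2 decides. lin-4_5p changed by 4.80 on the log2 scale (95% interval 1.99 to 7.62, edgeR adjusted p 0.00561), and 7.55 without that library. mir-237 had 6.41 (4.84 to 7.98, adjusted p 1.06e-05), and 7.55 without it as well. The hairpin of lin-4 (chromosome II, 5902269 to 5902329, plus strand, ce11) lies in an intron of F59G1.4 on the same strand.

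The 6 miRNAs of a list chosen for ageing and stress were all higher in young adults. The list need not be complete. mir-71_5p, which promotes a long life, had 97083, 115606, 120523 and 98609 CPM in young adults and 5847, 9712, 6067 and 6802 CPM in embryos. It was 15.2-fold higher in young adults, a log2 fold change of 3.93 (95% interval 3.50 to 4.35, edgeR adjusted p 1.96e-08). mir-238_3p, also linked to a long life, changed by 3.92, with 15447 ± 1012 CPM in young adults and 1018 ± 214 CPM in embryos (SD, n = 4 each). mir-246_3p had 4049, 4530.2, 4919.9 and 4530.2 CPM in young adults and 18.4, 36.4, 28.2 and 23.9 CPM in embryos, the largest change of the list at 7.40. mir-239a_5p, which opposes long life, had 23.4 ± 2.74 CPM in young adults and 1.66 ± 1.15 CPM in embryos, a log2 fold change of 3.81. mir-239b_5p was scarce, with 2.10 ± 0.615 CPM in young adults and 0.217 ± 0.279 CPM, about the worth of 3 counts, in embryos. Its log2 fold change of 3.25 became 4.52 without embryo replicate 2. mir-34_5p*, the abundant arm of the stress-response miRNA mir-34, had 304, 233, 238 and 306 CPM in young adults and 10.5, 94.6, 13.1 and 15.5 CPM in embryos, a log2 fold change of 3.02 (adjusted p 0.00188) and 4.41 without embryo replicate 2. All 6 members passed the test, with a median of 3.87, beside 43.1% of all tested arms called higher. The list held 14.8 ± 0.272% of arm counts in young adults and 0.709 ± 0.184% in embryos.

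**Figure D3:**
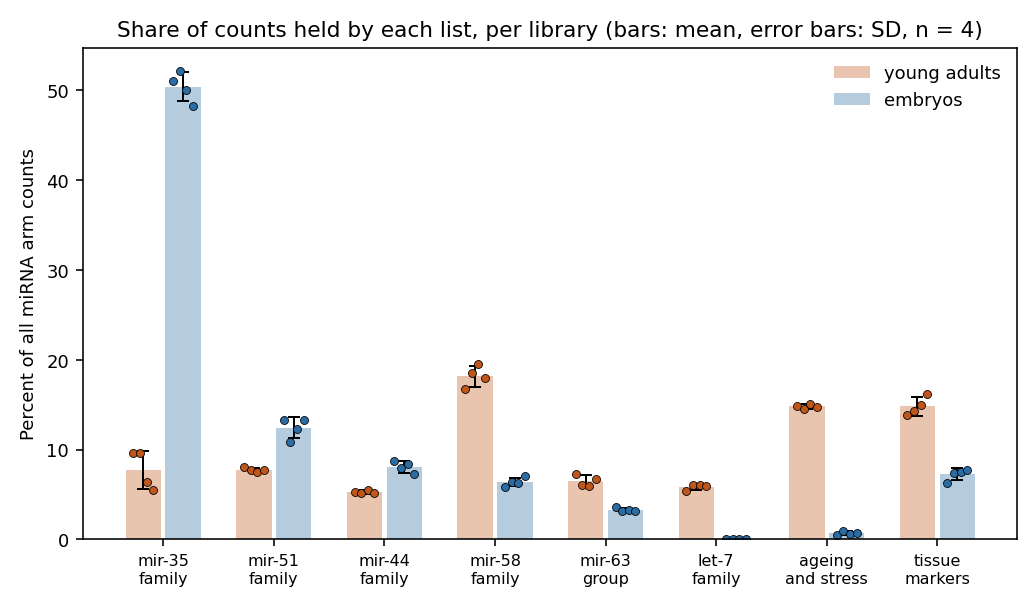
Percent of all miRNA arm counts held by 8 lists of miRNAs in young adults (orange, left of each pair) and embryos (blue, right), with bars at the mean, error bars for the SD over 4 libraries and a point per library. The mir-35 family holds 7.77% in young adults and 50.4% in embryos, and the ageing and stress list 14.8% in young adults and 0.709% in embryos.

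The largest changes upward outside these families were those of mir-85 and mir-77. mir-85_3p, which represses a heat-shock protein 70 gene during recovery from heat, had 5266, 6609, 7548 and 5251 CPM in young adults and 12.2, 11.7, 20.7 and 11.4 CPM in embryos. This was 439-fold, a log2 fold change of 8.78 (95% interval 8.11 to 9.44, edgeR adjusted p 2.00e-09), the highest of all arms. Its hairpin (chromosome II, 8393575 to 8393640, plus strand, ce11) lies opposite to an intron of F49E12.8. Both arms of mir-77 (chromosome II, 12519291 to 12519350, plus strand) changed alike. The guide mir-77_3p had 11615, 15971, 13605 and 12375 CPM in young adults and 31.2, 76.5, 55.4 and 31.0 CPM in embryos, and the star mir-77_5p* had 2404, 2909, 4101 and 3786 CPM in young adults and 6.43, 18.6, 9.44 and 6.56 CPM in embryos. Their log2 fold changes were 8.11 and 8.33. mir-77_5p* was the most abundant star of young adults.

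Further arms were higher in young adults. mir-786_3p and mir-240_3p, made by neighbouring hairpins on the X, had 118 ± 7.40 and 366 ± 27.8 CPM in young adults and 1.25 ± 0.549 and 6.94 ± 0.103 CPM in embryos. mir-786 sets the rhythm of defecation in the intestine. Their log2 fold changes were 6.54 and 5.72, and the star mir-240_5p* had 5.26. mir-795_5p of the let-7 family had 5.52, with 234 ± 42.3 CPM in young adults and 5.08 ± 0.790 CPM in embryos. mir-230_3p had 482 ± 96.1 CPM in young adults and 16.6 ± 4.66 CPM in embryos, a log2 fold change of 4.86. mir-70_3p, the 5th most abundant arm of young adults, had 41912 ± 3743 CPM in young adults and 4874 ± 881 CPM in embryos (3.10).

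Several arms outside the mir-35 family were lower in young adults by over 8-fold. mir-4813_5p and mir-4813_3p, both arms of a hairpin in an exon of idhg-1 (chromosome III, 4571648 to 4571707, plus strand, ce11), were among them. mir-4813_5p had 34.6, 26.8, 20.5 and 20.5 CPM in young adults and 446, 367, 554 and 269 CPM in embryos. mir-4813_3p had 9.63, 7.55, 9.90 and 8.17 CPM in young adults and 132, 121, 135 and 136 CPM in embryos. The log2 fold changes were -3.998 and -3.89, so the hairpin's arms moved together. Among annotated stars with a mean of at least 100 CPM in embryos, the largest changes were those of mir-67_5p* (-4.53), mir-52_3p* (-4.28), mir-49_5p* (-3.71) and mir-86_3p* (-3.47). mir-86_3p* had 111, 96.5, 119 and 116 CPM in young adults and 767, 902, 1670.3 and 1578 CPM in embryos, where replicates 3 and 4 lay well above 1 and 2. mir-43_3p of the mir-2 family, next to mir-42, had 5.25, 2.08, 1.98 and 2.45 CPM in young adults and 40.8, 53.9, 50.1 and 54.5 CPM in embryos (-4.06).

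The mir-51 family, the other family needed for embryogenesis, was lower in young adults by much less. It held 7.75 ± 0.216% of arm counts in young adults and 12.5 ± 1.15% in embryos. All 6 members passed the test, with a median log2 fold change of -0.73, beside 42.7% of all tested arms called lower. mir-51_5p had 14166, 17468, 19397 and 13113 CPM in young adults and 65567, 39272, 45037 and 46700.1 CPM in embryos. It changed by -1.62 (edgeR adjusted p 1.47e-05), and mir-52_5p had -1.59. The 3 members of the X chromosome cluster changed by -0.64 (mir-54_3p), -0.76 (mir-55_3p) and -0.70 (mir-56_3p). mir-53_5p changed by -0.49. With total-count scaling mir-53_5p and mir-54_3p made no call.

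The mir-58 family, relatives of the insect bantam miRNA that affect body size, was higher in young adults with TMM scaling. All 4 members in the table passed the test, beside 43.1% of all tested arms called higher. The members differed in size of change, from 2.56 for mir-80_3p over 1.71 for mir-81_3p and 0.85 for mir-82_3p to 0.67 for mir-58a_3p. mir-80_3p had 30626, 33369, 46680.2 and 29510.4 CPM in young adults and 6934, 6009, 6281 and 4589 CPM in embryos. mir-58a_3p had 43915, 59592, 56424 and 51581 CPM in young adults and 29578, 35086, 31059.8 and 36819 CPM in embryos, and with spike-in scaling its log2 fold change was -0.11 with no call, as was that of mir-82_3p (0.06). The family held 18.2 ± 1.18% of counts in young adults and 6.39 ± 0.472% in embryos.

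Tissue markers moved in both directions. mir-1_3p, the muscle marker, had 107798, 131719, 139886 and 129617 CPM in young adults and 80905, 86883, 84618 and 80774 CPM in embryos, a log2 fold change of 0.61 (95% interval 0.37 to 0.85, edgeR adjusted p 3.64e-04) that turned to -0.17 with no call under spike-in scaling. mir-60_3p, of the intestine, had 797 ± 44.3 CPM in young adults and 421 ± 59.7 CPM in embryos (0.92), and with spike-in scaling it changed by 0.14 with no call. The neuronal markers mir-124_3p and lsy-6_3p were lower in young adults. lsy-6_3p, of the left ASE taste neuron, had 9.71, 7.03, 12.1 and 10.3 CPM in young adults and 48.1, 57.9, 55.1 and 63.0 CPM in embryos, a log2 fold change of -2.51. mir-124_3p had 3.76, 4.56, 4.59 and 3.28 CPM in young adults and 8.69, 8.54, 8.64 and 10.1 CPM in embryos (-1.16). mir-791_3p, of the carbon dioxide sensing neurons, had 17.9, 12.5, 17.2 and 15.9 CPM in young adults and 8.18, 14.2, 8.08 and 8.51 CPM in embryos; its groups overlapped through embryo replicate 2, it changed by 0.71, and with spike-in scaling by -0.027. What part the makeup of tissues has in the other results was not tested.

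The remaining lists were mixed. In the mir-44 family, linked to the choice of sperm fate, mir-44_3p and mir-45_3p were lower in young adults (-1.47 and -1.43), and as near-identical arms they cannot be read apart. mir-61_3p and mir-247_3p made no call, at 0.11 (95% interval -0.14 to 0.35) and -0.68 (-1.51 to 0.16). Both depend on the scaling: mir-61_3p was called at 0.54 with total counts and at -0.64 with spike-ins, and mir-247_3p at -1.47 with spike-ins. In the mir-2 family, mir-250_3p was higher (1.99), mir-43_3p lower (-4.06), mir-797_5p* made no call (0.41), and mir-2_3p, called at -0.37, lost the call in 6 of the 8 fits that leave out a library and had 0.068 with total-count scaling. In the mir-63 group all 5 were higher with TMM scaling, beside 43.1% of all tested arms, mir-63_3p by 2.31. The other 4 are neighbours on chromosome III and changed by 0.48 (mir-65_5p) to 0.56 (mir-229_5p), values that turned to between -0.19 and -0.25 with no call under spike-in scaling.

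Hairpins that lie close together on 1 strand can share a primary transcript, and the table held 19 such clusters with 51 hairpins, joined at gaps of up to 10000 bases. In 7 clusters every tested guide was higher in young adults and in 4 every one was lower. Over all 132 tested guides, 63 were called higher and 52 lower. Some were close to equal: mir-48_5p and mir-241_5p differed by 0.097 on the log2 scale, the members of the mir-54 to mir-56 cluster by at most 0.12 and those of the mir-229 cluster by at most 0.080. In 11 clusters the 95% intervals of the guides did not all overlap, and in 3 guides were called in opposite directions with TMM scaling. In the X cluster of mir-73, mir-74 and mir-75, mir-73_3p had 4893 ± 513 CPM in young adults and 24438 ± 3032 CPM in embryos (-2.32), and mir-74_3p changed by -2.75. mir-75_3p of the same cluster had 31.8, 43.9, 34.9 and 46.0 CPM in young adults and 4.18, 6.68, 5.04 and 5.41 CPM in embryos. It changed by 2.88 (edgeR adjusted p 5.96e-07). The guides of mir-71 and mir-2, whose hairpins span 7223 bases, changed by 3.93 and -0.37, and those of mir-2208a and mir-2208b by -1.86 and 0.85. In the cluster of mir-42, mir-43 and mir-44 all 3 guides were lower, with log2 fold changes of -5.03, -4.06 and -1.47.

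**Figure D4:**
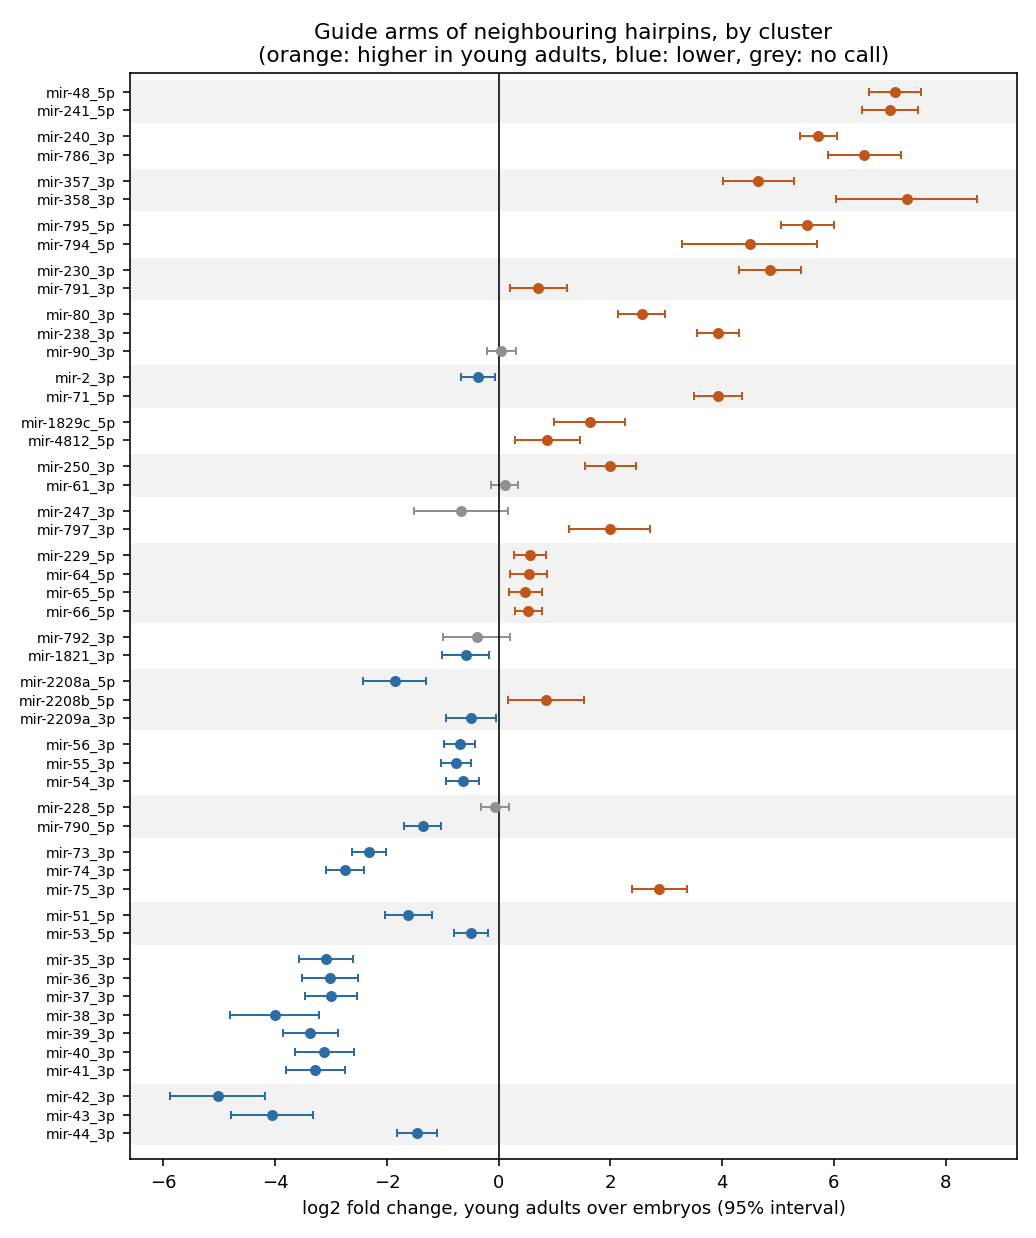
log2 fold change, young adults over embryos, with its 95% interval for the tested guide arms of 19 clusters of neighbouring hairpins, shaded in turn (orange higher in young adults, blue lower, grey no call). mir-73_3p and mir-74_3p lie at -2.32 and -2.75 while mir-75_3p of the same cluster lies at 2.88, and the 7 guides from mir-35 to mir-41 lie between -4.004 and -2.998.

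Arm choice differed between the stages in most hairpins that could be tested. The measure is log2 of star over guide counts, with 0.5 added to each, which does not depend on library scaling. Of 94 hairpins with a mean of at least 10 counts in both arms, 57 (60.6%) passed a limma test at an adjusted p under 0.05, with the star-to-guide ratio higher in young adults in 17 (18.1%) and lower in 40 (42.6%). The median shift, young adult minus embryo, was -0.36. Stars together held 1.25, 1.17, 1.23 and 1.28% of arm counts in young adult libraries and 0.832, 1.11, 1.31 and 1.46% in embryo libraries. The total thus overlapped between the stages, and embryo replicate 1 had the lowest star share of all.

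The more abundant arm changed in 4 hairpins, each with the star above 50% of the hairpin's counts in all 4 embryo libraries and below it in all 4 young adult libraries. In mir-788 (chromosome X, 8485301 to 8485362, minus strand, ce11), the star mir-788_5p* made up 10.2, 9.36, 10.04 and 12.1% of counts in young adults and 79.5, 75.3, 69.6 and 71.5% in embryos. The shift was -4.62 (95% interval -5.14 to -4.11, limma adjusted p 5.57e-08), the largest of all hairpins. Both arms moved: mir-788_3p had 121 ± 35.6 CPM in young adults and 23.4 ± 7.39 CPM in embryos, and mir-788_5p* had 13.9 ± 3.35 CPM in young adults and 66.3 ± 16.5 CPM in embryos. The annotation lists this hairpin a second time at nearly the same place.

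In mir-67 (chromosome III, 5931364 to 5931428, minus strand, an intron of zmp-1), the star made up 30.9, 33.1, 36.4 and 13.2% of counts in young adults and 63.6, 71.9, 79.5 and 80.5% in embryos. Here both arms were lower in young adults, with log2 fold changes of -4.53 for the star and -1.65 for the guide, and the ratio shifted by -2.95 (limma adjusted p 2.04e-04). In mir-232 the star made up 33.0 to 40.7% in young adults and 63.7, 61.9, 67.7 and 66.4% in embryos, a shift of -1.64 (adjusted p 1.17e-04). In mir-797 it made up 42.9, 42.4, 31.3 and 48.2% in young adults and 53.7, 76.9, 77.4 and 56.1% in embryos, a shift of -1.51 (adjusted p 0.00618). mir-797 rests on as few as 31 counts of both arms in a library. When a switch had to pass 60% in one stage and 40% in the other, mir-67 and mir-788 were the 2 left.

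**Figure D5:**
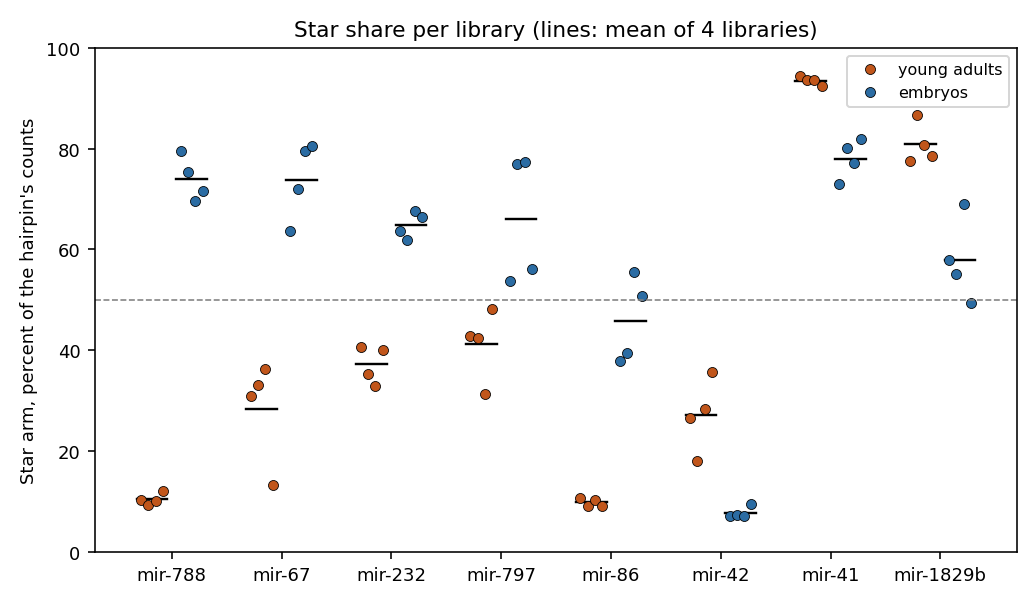
Star arm as a percent of the counts of its hairpin in each of 4 young adult libraries (orange, left) and 4 embryo libraries (blue, right), with lines at the means and a dashed line at 50%. In mir-788 the star holds 9.36 to 12.1% in young adults and 69.6 to 79.5% in embryos, while in mir-42 and mir-41 its share is higher in young adults.

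Other ratios were lower in young adults without such a switch. In mir-86 the star held 10.6, 9.15, 10.3 and 9.12% of counts in young adults and 37.8, 39.4, 55.6 and 50.7% in embryos, a shift of -2.96 (95% interval -3.56 to -2.37, limma adjusted p 9.93e-06). In embryo replicates 3 and 4 it was the larger arm and in 1 and 2 the smaller. The star of let-7 held 0.0493, 0.0565, 0.0344 and 0.0664% in young adults and 1.04, 0.421, 0.689 and 1.02% in embryos, a shift of -4.04. Both let-7 arms were higher in young adults, the guide by 7.67 and the star by 3.71, and the star had few counts in embryos. Star-to-guide ratios were also lower in mir-235 (0.0550 ± 0.0213% in young adults and 0.384 ± 0.0995% in embryos, shift -2.83), whose guide is a miR-92 relative that holds L1 larvae in quiescence, in mir-52 (-2.73) and in mir-53 (-2.98). The mir-85 star was listed at 0 in all 4 embryo libraries and held 0.0266, 0.0158, 0.0386 and 0.0532% in young adults. Its shift of -3.32 is set by the 0.5 added, and an edgeR test of arm by stage made no call there (-1.42, adjusted p 0.620).

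The mir-35 family made up 8 of the 17 hairpins with a higher star-to-guide ratio in young adults. All 8 of its hairpins passed the limma test in that direction, beside 18.1% of all tested hairpins, with shifts from 1.21 (mir-35) to 2.12 (mir-42). In mir-42 the star held 26.5, 18.1, 28.4 and 35.7% of counts in young adults and 7.16, 7.34, 7.13 and 9.47% in embryos, with no overlap. In mir-41 it was the larger arm at both stages, with 94.4, 93.6, 93.6 and 92.5% in young adults and 73.0, 80.1, 77.1 and 82.0% in embryos. mir-38 (2.70 ± 0.931% in young adults and 0.625 ± 0.0700% in embryos), mir-40 (5.63 ± 0.942% and 2.09 ± 0.720%) and mir-36 (1.10 ± 0.184% and 0.315 ± 0.131%) also had higher star shares in young adults (SD, n = 4 each). The guides of these hairpins fell by more than their stars, as the levels above show.

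Outside that family, mir-253 had the largest upward shift, 2.46 (limma adjusted p 5.30e-05), with a star share of 4.89, 3.403, 2.84 and 3.28% in young adults and 0.691, 0.785, 0.749 and 0.375% in embryos. mir-2208b (1.87), mir-789-2 (1.81) and mir-1829b (1.64) followed. The annotation marks no star in mir-2208b, where the less abundant arm was taken as the star. The stars of mir-789-2 and mir-1829b have a near-identical arm in another hairpin and are uncertain. In mir-1829b the star held 80.9 ± 4.13% in young adults and 57.9 ± 8.22% in embryos.

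Taking both arms of each hairpin, guide and star were both higher in young adults in 32 hairpins and both lower in 32. They were called in opposite directions in 8: the guide higher and the star lower in mir-1, mir-60, mir-81, mir-229, mir-235, mir-252 and mir-788, and the guide lower and the star higher in mir-72. In mir-60 the star held 0.415 ± 0.0683% of counts in young adults and 1.83 ± 0.329% in embryos. In mir-229 it held 30.2 ± 2.75% in young adults and 48.3 ± 2.79% in embryos. These directions are those of TMM scaling, and with spike-in scaling the guides of mir-1, mir-229 and mir-60 changed by -0.17, -0.21 and 0.14 with no call, while that of mir-81 changed by 0.97 and passed the edgeR test. Of the rest, 17 hairpins had 1 of both arms called and 4 neither, while in 39 only 1 arm was tested and in 6 no arm.

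Libraries outside the comparison gave a second look at these differences. Wild-type young adults of experiment 2 (44 h at 25 °C) and wild-type embryos of experiment 3 (20 °C) form a contrast with no library in common, in which stage and experiment cannot be told apart. There 178 of 222 tested arms were called (80.2%). Of the 191 arms called here and tested there, 184 had the same sign, 161 of them called, and 2 were called with the opposite sign. Across 221 arms the log2 fold changes correlated at Pearson's r = 0.945 and Spearman's rho = 0.946, a description over arms that share libraries within each contrast. Animals with the AEDH change, a mutation of the catalytic site, in both ALG-1 and ALG-2 were sampled at both stages within experiment 1. In them 185 of 226 arms were called (81.9%), 190 of 191 had the same sign, and r was 0.985 over 222 arms.

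Most large differences held in both sets, some with other sizes. Of 100 arms changed 4-fold here and tested there, 98 were called with the same sign in experiments 2 and 3. In the double AEDH animals 99 of 100 were. mir-85_3p had 12.72 in experiments 2 and 3 and 8.91 in the double AEDH animals, and let-7_5p had 10.38 and 8.16. lin-4_5p had 12.04 and 5.77, beside 4.80 here. Embryos of experiment 3 held less of these arms than embryos of experiment 1: lin-4_5p had 0.237, 0.880, 0.403 and 0.838 CPM there, mir-85_3p 0.710, 0.880, 0.806 and 0.978 CPM and let-7_5p 11.1, 9.33, 6.85 and 2.65 CPM. In those embryo libraries 3 counts were worth 0.455 to 0.624 CPM. The changes of lin-4_5p and mir-85_3p in experiments 2 and 3 thus rest on few embryo counts, and their sizes are uncertain. mir-35_3p had -2.16 and -3.07, but mir-41_3p had -0.53 (edgeR adjusted p 0.0935) and -3.54. mir-1_3p went the other way in experiments 2 and 3, at -0.56 with no call (adjusted p 0.0638), and had 0.72 in the double AEDH animals. mir-54_3p had 0.38 with no call and -0.48. mir-44_3p had -0.12 with no call and -1.22.

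In experiments 2 and 3, 53 of 92 hairpins were called (57.6%), and of 55 called here 49 had the same sign, 40 of them called, and 2 were called with the opposite sign. In double AEDH animals 63 of 95 were called (66.3%), and of 56 called here 55 had the same sign, 52 of them called. mir-788 shifted by -2.56 and -2.42 in these sets, and its star held 19.5 ± 2.80% in young adults of experiment 2 and 58.6 ± 4.87% in embryos of experiment 3. mir-67 shifted by -2.61 and -2.53. Its star held 49.7 ± 6.25% in young adults of experiment 2 and 85.7 ± 2.74% in embryos of experiment 3. That young adult share lies at the 50% line, so the switch of mir-67 was not clear there. mir-232 shifted by -1.99 and -1.66. mir-797 shifted by -2.41 and by -0.50, the latter with no call (limma adjusted p 0.181). mir-86 shifted by -3.01 and -2.74. Of the hairpins with arms called in opposite directions, mir-72 shifted by 1.22 and by -0.44, the latter with no call (limma adjusted p 0.202). mir-1 shifted by -0.23 with no call (limma adjusted p 0.463) and by -1.62. The ratios of mir-60, mir-81, mir-229, mir-235, mir-252 and mir-788 were called lower in both sets. mir-2208b shifted by 1.58 and by 0.0086, the latter with no call (limma adjusted p 0.989). In the mir-35 family, mir-38 shifted by 2.54 and 2.10, while 3 hairpins made no call in experiments 2 and 3: mir-35 had 0.50 (limma adjusted p 0.413) and 1.16, mir-41 had 0.24 (limma adjusted p 0.610) and 1.86, and mir-36 had 0.25 (adjusted p 0.508) and 1.49.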

How the data were processed

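Small RNA of whole animals was sequenced, and the deposited table holds the authors' counts for each arm as estimated counts, with no normalization, per the file headers. The submitters' processing notes name HTSeq 0.13.5, SAMtools 1.13, Bowtie2 2.4.4, cutadapt 3.4 and DESeq2, with no counting settings. Positions and star marks come from the deposited annotation on the ce11 build, and gene context from the WBcel235 annotation. Of the 2208 values used, 206 (9.33%) ended in 0.5 and were rounded up, so hairpin arms with such values may be off by a read. The annotation marks the star in 132 hairpins, and in the other 6 it was taken as the less abundant arm over wild-type libraries. Rows of 10 spike-ins and 5 summary categories stayed out of library sizes and tests.

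Arms were tested in R 4.3.3 with edgeR 4.0.16 (quasi-likelihood test, TMM, filterByExpr with a minimum count of 10, robust, no block) on the 8 libraries, with Benjamini-Hochberg adjustment over all arms tested. Star-to-guide ratios were tested with limma 3.58.1 (trend, robust), adjusted over all hairpins tested. Both procedures were also run on simulated counts with a common dispersion and most arms unchanged. That setting differs from these data, in which most arms were called, so it does not bear on the calls here. The named arms were the 10 most abundant of each stage, up to 15 per direction with the largest called change and at least 100 CPM in the higher stage, the one-stage arms and the list members; the named hairpins were up to 8 per direction and all switches. A few arms outside this rule (mir-796_5p, mir-2210_3p, cluster members, arms of switching hairpins and the pairs of the closing section) were chosen after their values were seen. The members and lists were chosen with earlier results of these data known. List members mir-793, mir-58b and mir-1834 were not analysed here. Alternatives were other scalings, DESeq2 1.42.0, no filter, a replicate block, a fit with L4 larvae, leaving out each library, and other minimums; rounding down and the other libraries were added after seeing the data. Replicates differed by far more than sampling noise, and each library counts once. Floors cover counting error only, since no molecular identifiers are named.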

Additional observations from a re-analysis of the deposited data

Results flagged for a closer look

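Values far from the other 3 libraries of their stage were found in 19 of 192 groups of 4 examined; chance flags about 5% of groups. Of these, 8 lay in embryo replicate 2: lin-4_5p at 192 TMM-scaled CPM, mir-237 at 109.9, mir-84_5p at 150.0, mir-34_5p* at 94.6, mir-230_3p at 23.6, mir-791_3p at 14.2, mir-797_5p* at 5.34 and mir-794_5p at 4.36, each the highest of the 4 embryo libraries. Without this library mir-797_5p* passed the edgeR test (0.95, adjusted p 0.00521). The log2 fold change went from 6.47 to 6.85 for mir-84_5p, from 4.86 to 5.08 for mir-230_3p and from 0.71 to 0.97 for mir-791_3p. Of arms not flagged, mir-247_3p went from -0.68 to -0.17, mir-239a_5p from 3.81 to 4.26 and mir-784_5p from 5.72 to 6.42.

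Other embryo libraries that stood apart were replicate 1 for mir-55_3p (37552 CPM), mir-2_3p (375 CPM) and mir-237_3p* (0.167 CPM, the lowest), replicate 3 for mir-85_3p (20.7 CPM) and replicate 4 for mir-124_3p (10.1 CPM). Among young adults, replicate 1 stood apart for mir-43_3p (5.25 CPM) and mir-237_3p* (8.49 CPM, the lowest), replicate 2 for mir-66_5p (11848 CPM) and replicate 4 for mir-67_5p* (1.54 CPM, the lowest). Of star shares, those of mir-42 in embryo replicate 4 (9.47%) and of mir-53 in embryo replicate 1 (1.47%) lay far above the other embryo libraries.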

How the results depend on the processing

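Across the scalings, tests, filters and left-out libraries tried, 186 to 200 arms were called, against 193, and 186 to 193 when a library was left out; called arms were split 72 higher to 117 lower with spike-in totals and 112 to 77 with total counts. Spike-in totals also gave 70 arms lower by 4-fold, against 44, and turned the sign of mir-1_3p (-0.17), mir-58a_3p (-0.11), mir-65_5p (-0.25), mir-64_5p (-0.19), mir-66_5p (-0.23), mir-229_5p (-0.21), mir-791_3p (-0.027) and mir-61_3p (-0.64, called there at an edgeR adjusted p of 0.0168); total counts turned mir-2_3p (0.068). By construction these scalings move every arm of a library alike. Arms of young adults only numbered 3 with a 50 CPM minimum, 15 with a 3 CPM maximum and 3 with TMM-scaled CPM, and 5 to 6 with a library left out; arms of embryos only numbered 1 with the 3 CPM maximum; switches numbered 2 at 60%. The shared class held 87 arms with the 50 CPM minimum. Hairpins called for the ratio numbered 41 of 64 tested when both arms needed a mean of 100 counts, and 53 to 60 with a library left out. Same-numbered young adult and embryo libraries deviated together at correlations of -0.15 to 0.15, and whether a replicate number marks a shared batch was not tested further. With a replicate block 190 arms (96 higher, 94 lower) and 56 hairpins were called. Depth limits what can be said of embryo arms near 0.193 to 0.253 CPM, the worth of 3 counts there, and of young adult arms near 0.260 to 0.420 CPM.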

Other observations

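Related miRNAs could differ in direction or size, in pairs chosen after their values were seen. mir-49_3p and mir-83_3p, both miR-29 relatives, changed by -2.93 and 1.40: mir-49_3p had 470.0, 543, 539 and 513 CPM in young adults and 3984, 4026, 3812 and 3889 CPM in embryos, and mir-83_3p had 139.6, 93.9, 98.5 and 116 CPM in young adults and 42.7, 45.8, 39.2 and 41.8 CPM in embryos. mir-47_3p changed by 2.02 (95% interval 1.70 to 2.33), while its relative mir-46_3p had -0.02. mir-75_3p changed by 2.88, while mir-79_3p had 0.07 (-0.27 to 0.40). mir-785_3p changed by 1.86 and mir-86_5p by -0.43.

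In 7 hairpins the annotated star held over 50% of counts in all 8 libraries: mir-34, mir-41, mir-74, mir-231, mir-239a, mir-392 and mir-1832a. The star of mir-34 held 89.6 ± 3.43% in young adults and 89.6 ± 6.57% in embryos, and that of mir-74 62.4 ± 5.23% in young adults and 58.9 ± 3.20% in embryos. mir-392 rests on as few as 4 counts in a library.

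In double AEDH embryos of experiment 1, the library numbered 2 was also the highest of its 4 for lin-4_5p, at 102 TMM-scaled CPM against 6.20 to 10.5 CPM, and for mir-237, at 65.1 CPM against 12.6 to 19.3 CPM. What these same-numbered embryo libraries share was not tested.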
